A study of Mus musculus with 16 samples.

Results

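The 36 genes described here act in mitosis. They were taken from a list of genes that carry cells through the G2-M transition, build the spindle and hold chromosomes to it. All 36 symbols were found among the 46517 gene identifiers of the deposited files, and all 36 were among the 14933 genes with enough counts to be tested. Their RNA was measured in live CD4+CD8+ (double-positive) thymocytes sorted by flow cytometry from 16 mice aged 6 to 7 weeks, with 1 library per mouse. Every mouse was of the NOD-AI4 strain, which carries the T cell receptor transgene of the autoreactive CD8 T cell clone AI4 on the diabetes-prone NOD background. The groups were 5 Nfkbid transgenic mice (NOD-AI4-60A, 3 males and 2 females), 5 mice labelled NOD-AI4-Nfkbid-/- (4 males and 1 female) and 6 NOD-AI4 controls (3 males and 3 females) that carried the receptor transgene but neither the Nfkbid transgene nor the knockout allele. Nfkbid encodes IκBNS, a nuclear regulator of NF-κB target genes. The labels give neither the promoter of the 60A transgene nor the structure of the knockout allele.

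Cells enter mitosis when CDK1, bound to cyclin A or cyclin B, escapes its inhibitory phosphorylation. Polo-like and Aurora kinases then mature the spindle poles and kinetochores, the spindle checkpoint holds the anaphase-promoting complex until each chromosome is attached, and CDC20 and UBE2C drive the destruction of cyclin B and the release of separase. Most of these genes are transcribed in a wave late in the cell cycle. In the thymus, division is concentrated in immature cells that have just passed selection of the T cell receptor beta chain, some of which already carry CD4 and CD8, whereas most double-positive cells are small and at rest.

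All 36 mitosis genes were higher in transgenic than in control thymocytes, and all 36 were higher in knockout-labelled than in control thymocytes, at an adjusted p under 0.05 from edgeR's quasi-likelihood test. Over all 14933 genes tested, 23.0% were called higher and 15.6% lower in transgenic (38.6% either way), and 16.4% were called higher in knockout-labelled thymocytes (26.4% either way). In knockout-labelled thymocytes 1493 of the 14933 genes were called lower. The median change of the 36 genes was 0.68 on the log2 scale in transgenic and 0.65 in knockout-labelled libraries, beside medians of 0.03 and 0.02 over all genes tested. The smallest and largest changes were 0.47 for Bub1 and 1.01 for Ccnb1 in transgenic, and 0.39 for Kif23 and 0.89 for Ccnb1 in knockout-labelled libraries. In a direct comparison of transgenic with knockout-labelled thymocytes, none of the 36 genes was called, none had an unadjusted p under 0.05, and DESeq2 and limma-voom also called 0. In bulk RNA of this kind, more cells in division and more of these transcripts per cell cannot be told apart. Both comparisons use the same 6 controls, and are therefore not independent. All controls had mouse identifiers of 1 series and all other mice identifiers of another, so that genotype and identifier series cannot be told apart; transgenic and knockout-labelled mice lie inside 1 series.

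The 36 transcripts together held 5751 to 7745 CPM (counts scaled to a common library size) in transgenic, 5059 to 7691 CPM in knockout-labelled and 3447 to 5390 CPM in control libraries, or 0.565% to 0.785%, 0.516% to 0.788% and 0.350% to 0.532% of all counts. Transgenic libraries lay above the highest control, whereas knockout-labelled replicate 5 lay below it. Knockout-labelled replicate 5 had the lowest level of its group for 36 of 36 genes, transgenic replicate 3 for 31, and control replicate 2 for 32. Control replicate 3 had the highest control level for 32 genes. Every transgenic library exceeded every control for 29 of the 36 genes, beside 13.7% of all genes tested. Every knockout-labelled library exceeded every control for 11 of the 36, beside 8.77% of all genes.

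**Figure D1:**
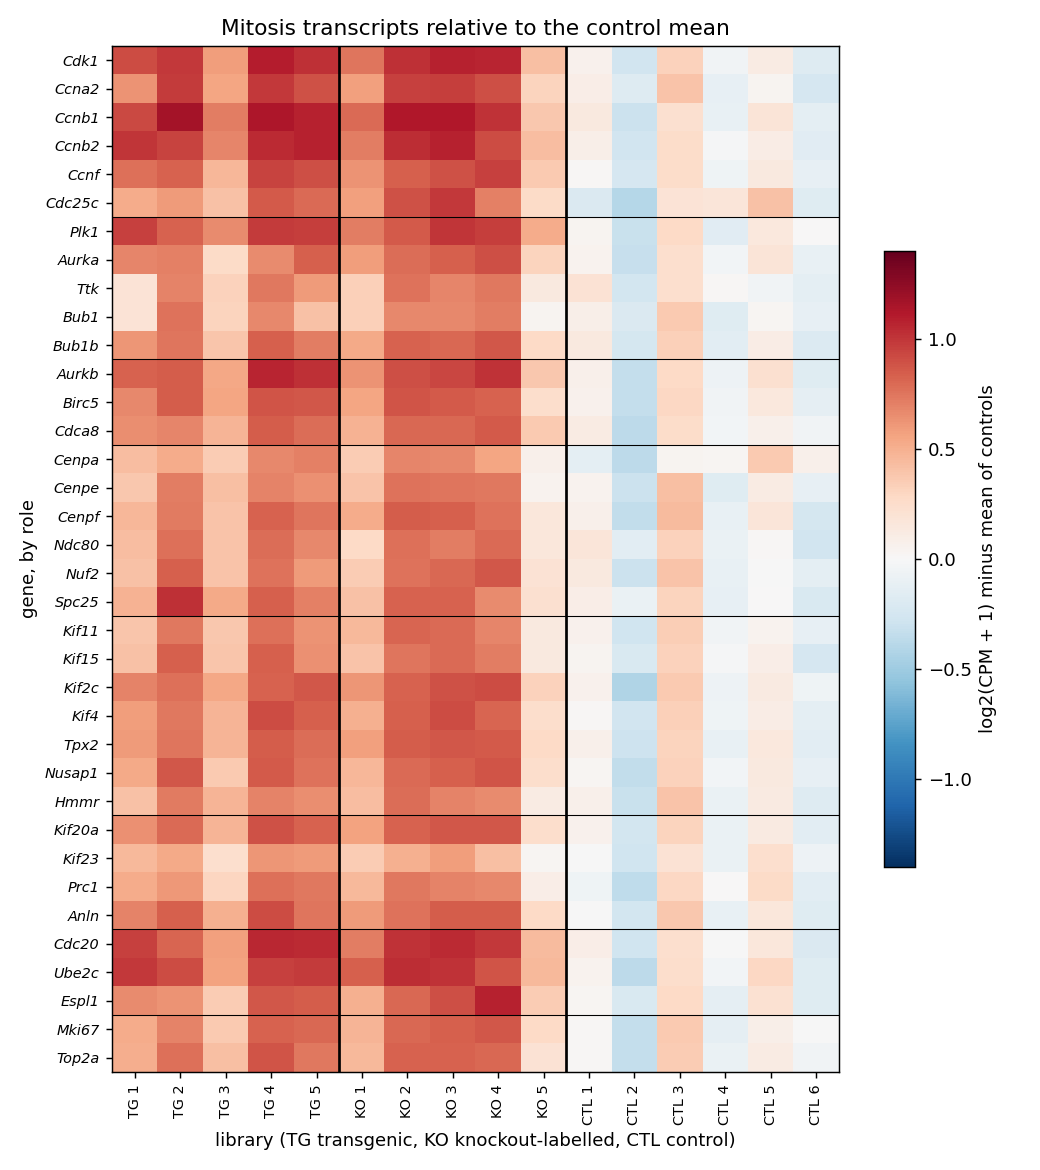
Level of each of the 36 mitosis genes (rows, grouped by role) in each of the 16 libraries (columns: 5 transgenic, 5 knockout-labelled, 6 control), as log2(CPM + 1) minus the mean of the 6 controls. Transgenic replicate 3 and knockout-labelled replicate 5 are the palest columns of their groups, and control replicate 3 the darkest control.

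Library totals lay between 17955743 and 35637813 estimated counts, with control males deeper than control females. Nfkbid was at 309.6, 239, 115, 194.5 and 183 CPM in transgenic libraries 1 to 5 and at 34.3, 28.8, 28.7, 28.2 and 37.8 CPM in knockout-labelled libraries 1 to 5, against 28.9 to 36.9 CPM in controls. The transgenic libraries were thus 6.38-fold above controls (adjusted p = 9.79e-08), and the libraries labelled as knockouts were not below controls (log2 fold change 0.07, 95% interval -0.26 to 0.40, adjusted p = 0.78). A count over the whole gene does not show whether the transcript is intact, so it does not check the knockout label; these mice are called knockout-labelled throughout. The double-positive markers Cd4, Cd8a and Rag1 were at 666, 1598 and 441 CPM or more in every library. The libraries were stranded, and no label or header states whether the authors' counting used strand. Estimated counts were fractional in every library for 15 members, among them Ccna2, Plk1, Top2a and Ube2c, as where reads are shared out between genes. They were whole in all 16 libraries for 14 members, among them Cdk1, Ccnb2, Bub1 and Mki67. The remaining 7 members were whole in some libraries, Ccnb1 in 1. Levels of members with fractional counts are less certain, and the tests made no allowance for this.

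Promoter sequences of 4 of the 6 genes with the largest changes, and of the 2 with the smallest, are shown. They let the reader see which known cell-cycle elements these genes hold. Cdc20 and Ube2c, the others of the 6, are not printed. Many late cell-cycle genes carry a cell-cycle homology region (letters TTTGAA, or the variant TTTAAA) close to the start site, bound by the DREAM and MuvB complexes, and CCAAT boxes bound by NF-Y at spaced positions upstream. RefSeq (GRCm38.p6) gave promoters of 250 bases before to 50 bases after the start for 31 of the 36 genes, 32 promoters in all because Prc1 has a pair of them. Aurkb, Ccna2, Cdc25c, Kif20a and Tpx2 had no entry. The windows below run 5′ to 3′ along the gene, with matches on either strand in capitals (TTCAAA and ATTGG are the reverse strands of TTTGAA and CCAAT). Ccnb1 (chr13:100786437-100786736), Ccnb2 (chr9:70421505-70421804) and Cdk1 (chr10:69352863-69353162) lie on the minus strand and Plk1 (chr7:122159185-122159484) on the plus strand; all 4 were among the 6 genes with the largest changes in both comparisons. Kif23 (chr9:61946750-61947049, minus strand) and Bub1 (chr2:127831810-127832109, minus strand) had the smallest changes.
Ccnb1: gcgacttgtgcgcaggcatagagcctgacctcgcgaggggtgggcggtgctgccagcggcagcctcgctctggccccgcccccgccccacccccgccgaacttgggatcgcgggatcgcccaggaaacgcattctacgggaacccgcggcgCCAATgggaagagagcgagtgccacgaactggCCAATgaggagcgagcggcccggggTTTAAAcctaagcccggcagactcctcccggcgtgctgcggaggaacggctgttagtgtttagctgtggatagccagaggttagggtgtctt
Ccnb2: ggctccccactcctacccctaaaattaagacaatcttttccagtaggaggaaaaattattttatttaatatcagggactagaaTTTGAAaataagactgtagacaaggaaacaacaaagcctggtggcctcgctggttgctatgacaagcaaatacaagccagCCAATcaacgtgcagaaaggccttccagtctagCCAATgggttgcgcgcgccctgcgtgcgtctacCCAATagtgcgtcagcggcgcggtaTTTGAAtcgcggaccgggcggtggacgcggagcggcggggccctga
Cdk1: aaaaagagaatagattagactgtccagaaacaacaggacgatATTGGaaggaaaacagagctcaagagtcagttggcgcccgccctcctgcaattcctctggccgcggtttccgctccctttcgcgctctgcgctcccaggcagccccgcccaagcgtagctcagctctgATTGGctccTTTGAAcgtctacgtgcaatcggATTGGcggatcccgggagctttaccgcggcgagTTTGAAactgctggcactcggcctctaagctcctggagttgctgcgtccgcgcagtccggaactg
Plk1: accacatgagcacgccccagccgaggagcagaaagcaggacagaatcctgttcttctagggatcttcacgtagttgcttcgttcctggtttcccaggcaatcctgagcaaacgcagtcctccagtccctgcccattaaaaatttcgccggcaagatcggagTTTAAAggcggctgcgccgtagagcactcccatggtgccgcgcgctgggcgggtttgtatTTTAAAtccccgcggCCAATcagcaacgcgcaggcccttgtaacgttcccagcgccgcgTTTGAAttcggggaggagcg
Kif23: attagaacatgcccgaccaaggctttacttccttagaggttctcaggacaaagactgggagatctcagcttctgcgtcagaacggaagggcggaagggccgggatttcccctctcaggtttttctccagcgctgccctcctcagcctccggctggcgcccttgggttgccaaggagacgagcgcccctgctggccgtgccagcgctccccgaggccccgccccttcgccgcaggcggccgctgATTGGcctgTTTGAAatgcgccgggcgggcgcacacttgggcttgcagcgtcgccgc
Bub1: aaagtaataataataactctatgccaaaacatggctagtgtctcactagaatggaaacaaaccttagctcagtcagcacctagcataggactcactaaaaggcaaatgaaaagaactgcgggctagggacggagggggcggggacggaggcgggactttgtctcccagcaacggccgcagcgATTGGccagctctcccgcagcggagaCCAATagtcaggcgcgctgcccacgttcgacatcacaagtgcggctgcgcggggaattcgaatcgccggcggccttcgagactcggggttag
The Ccnb1 window held 2 CCAAT boxes and 1 TTTAAA, Ccnb2 held 3 CCAAT boxes and 2 TTTGAA, and Cdk1 held 3 CCAAT boxes and 2 TTTGAA. Plk1 held 1 CCAAT box, 1 TTTGAA and 2 TTTAAA. Kif23 held 1 CCAAT box and 1 TTTGAA, and Bub1 held 2 CCAAT boxes and neither TTTGAA nor TTTAAA.

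Over the 32 promoters, TTTGAA was found in 26 (81.2%), against 17.9% of all 32851 mouse promoters of the same length. It started within 50 bases of the start site in 24 (75.0%), against 4.94% of all promoters. TTTAAA started within 50 bases in 6 (18.8%), against 3.64%. CCAAT was found in 25 (78.1%), against 37.4%, and at 2 or more places in 17 (53.1%), against 11.7%. A near-start TTTGAA or TTTAAA together with 2 or more CCAAT boxes was present in 15 promoters (46.9%), against 0.989% of all promoters. In Cdca8 and Ube2c some matches overlapped each other, by 1 and 2 bases in total. The median log2 change in transgenic libraries was 0.65 over the 25 genes with TTTGAA or TTTAAA near the start and 0.66 over the 6 without, and in knockout-labelled libraries it was 0.64 over both. The Kif2c window (chr4:117178723-117179022, minus strand) lies inside the gene (chr4:117159639-117182639), so the gene's outer start was not searched. Kif2c is counted among the genes without an element. The Cdca8 and Kif4 windows also lie inside their genes. The 12 combinations of motif and window were chosen from textbook knowledge of cell-cycle promoters after the data had been seen. A match is a string of letters and does not show that a factor binds.

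**Figure D2:**
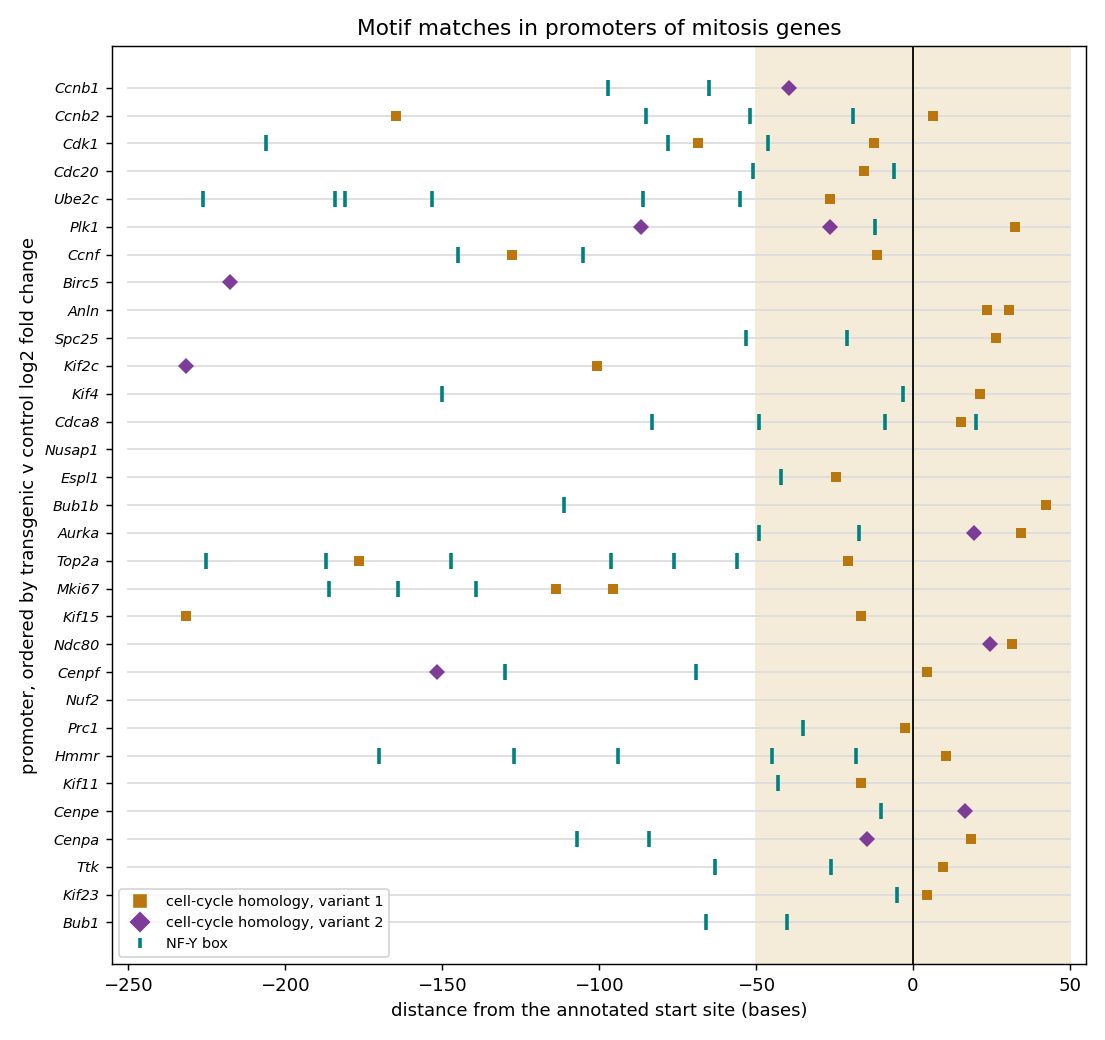
Position of each motif match (markers: 2 variants of the cell-cycle homology element, and the NF-Y box) relative to the annotated start site, in bases, in 1 promoter for each of the 31 genes, ordered from the largest transgenic v control change (top) to the smallest. The shaded band is the window of 50 bases on either side of the start, which holds a homology element for 25 of the 31 genes. Birc5, Bub1, Kif2c, Mki67, Nuf2 and Nusap1 have none there, Kif2c in a window that lies inside its gene.

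The genes of mitotic entry changed most, together with those of anaphase and exit. Median log2 changes of the 6 entry genes were 0.86 in transgenic and 0.79 in knockout-labelled libraries. Ccnb1, which encodes cyclin B1, the main activator of CDK1 at the onset of mitosis, was at 143, 169, 124, 165.5 and 159 CPM in transgenic libraries 1 to 5 and 130.2, 164, 164, 151.5 and 97.4 CPM in knockout-labelled libraries 1 to 5, against a lowest of 60.55, a median of 75.9 and a highest of 87.9 CPM in the 6 controls. The groups did not overlap: every transgenic and knockout-labelled library was above every control, with knockout-labelled replicate 5 nearest to them. The difference from controls was 1.01 ± 0.14 on the log2 scale in transgenic (SE, 2.01-fold, adjusted p = 0.000104) and 0.89 ± 0.14 in knockout-labelled libraries (1.86-fold, adjusted p = 0.000827). In GRCm38, Ccnb1 spans chr13:100778650-100786570 on the minus strand, and its promoter is the first of those printed above.

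Cdk1 (chr10:69335146-69352938), the kinase that cyclins A and B activate, was at 106, 111, 84, 121 and 114 CPM in transgenic libraries 1 to 5 and 94.4, 114, 118.5, 117 and 74.8 CPM in knockout-labelled libraries 1 to 5, against a lowest of 46.2, a median of 55.8 and a highest of 69.8 CPM in the 6 controls. Again no library of either group fell into the control range. Cdk1 was 1.90-fold higher in transgenic (log2 0.93 ± 0.13, adjusted p = 0.000141) and 1.82-fold higher in knockout-labelled libraries (log2 0.87 ± 0.14, adjusted p = 0.000755). Ccnb2 (chr9:70407692-70421547), which encodes the cyclin B that sits largely at the Golgi, was at 127, 123, 102, 132 and 134 CPM in transgenic libraries 1 to 5 and 104.5, 131, 134, 119.9 and 85.3 CPM in knockout-labelled libraries 1 to 5, against a lowest of 52.3, a median of 64.7 and a highest of 75.7 CPM in the 6 controls. Its change was 0.95 ± 0.12 in transgenic (adjusted p = 4.89e-05) and 0.84 ± 0.12 in knockout-labelled libraries (adjusted p = 0.000507), again with no overlap with controls. Among the other entry genes, Ccna2 (cyclin A2) averaged 226 ± 31.5 CPM in transgenic, 217 ± 41.15 CPM in knockout-labelled and 129 ± 22.2 CPM in control libraries (SD, n = 5, 5 and 6). Ccnf, the F-box cyclin that targets proteins for destruction in G2, changed by 0.79 in transgenic and 0.74 in knockout-labelled libraries on the log2 scale. Cdc25c, a phosphatase that removes the inhibitory phosphates of CDK1, was the lowest of the 36 genes per length, at 13.6 ± 2.19 TPM in transgenic, 14.6 ± 3.12 TPM in knockout-labelled and 9.16 ± 2.25 TPM in control libraries, and changed by 0.67 in transgenic and 0.75 in knockout-labelled libraries.

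**Figure D3:**
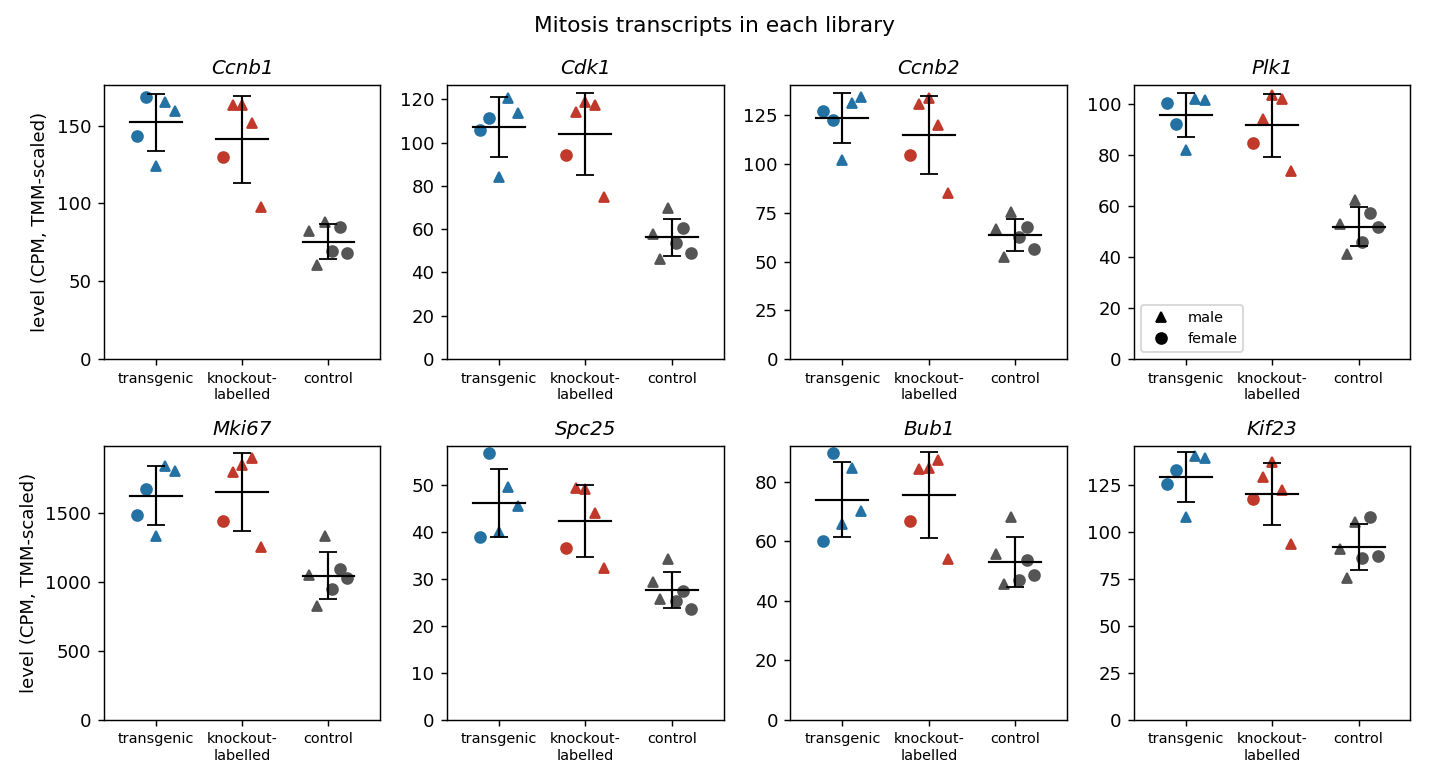
Level in CPM (vertical axes, each from 0) of 8 mitosis genes in each library of the transgenic (5), knockout-labelled (5) and control (6) groups; triangles are males, circles females, the long bar the mean and the whiskers 1 SD. Ccnb1, Cdk1, Ccnb2 and Plk1 separate from controls completely in both groups, whereas Bub1 and Kif23 overlap with them.

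Anaphase and mitotic exit genes rose to a like degree, with median log2 changes of 0.88 in transgenic and 0.84 in knockout-labelled libraries. Cdc20, the activator that the spindle checkpoint holds back, averaged 138 ± 18.5 CPM in transgenic, 134 ± 22.7 CPM in knockout-labelled and 74.2 ± 10.4 CPM in control libraries, a change of 0.89 in transgenic and 0.84 in knockout-labelled libraries. Ube2c, the ubiquitin-conjugating enzyme of the anaphase-promoting complex, averaged 173 ± 20.1 CPM in transgenic, 169.8 ± 25.5 CPM in knockout-labelled and 94.55 ± 16.3 CPM in control libraries and changed by 0.88 in transgenic and 0.86 in knockout-labelled libraries. Both separated every transgenic and knockout-labelled library from every control. Espl1 encodes separase, the protease that cuts cohesin at anaphase, and changed by 0.67 in transgenic and 0.71 in knockout-labelled libraries.

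Mitotic kinases and checkpoint genes had median changes of 0.65 in transgenic and 0.64 in knockout-labelled libraries, but ranged widely. Plk1 (chr7:122159439-122169873), the polo-like kinase that acts from centrosome maturation to cytokinesis, was at 100.5, 92.1, 81.8, 102 and 101.5 CPM in transgenic libraries 1 to 5 and 84.9, 94, 104, 102 and 73.9 CPM in knockout-labelled libraries 1 to 5, against a lowest of 41.1, a median of 52.3 and a highest of 62.4 CPM in the 6 controls. No library overlapped with the controls, and the change was 0.88 ± 0.11 in transgenic (adjusted p = 3.7e-05) and 0.81 ± 0.11 in knockout-labelled libraries (adjusted p = 0.000394), the smallest adjusted p of the 36 genes in both comparisons. Bub1 (chr2:127801122-127831865), a checkpoint kinase of the kinetochore, stood at the other end, at 60.1, 89.6, 65.7, 84.5 and 70.3 CPM in transgenic libraries 1 to 5 and 66.8, 84.3, 84.7, 87.2 and 54 CPM in knockout-labelled libraries 1 to 5, against a lowest of 45.6, a median of 51.2 and a highest of 68.3 CPM in the 6 controls. Only 3 transgenic and 3 knockout-labelled libraries were above the highest control. Its change was 0.47 ± 0.14 in transgenic (adjusted p = 0.0168) and 0.47 ± 0.15 in knockout-labelled libraries (adjusted p = 0.0271), the largest adjusted p of the 36 genes in both comparisons. The call for Bub1 was lost when single libraries were left out, for instance at a log2 change of 0.38 in knockout-labelled mice (adjusted p = 0.0934) and of 0.38 in transgenic mice (adjusted p = 0.0595) without control replicate 2. Without transgenic replicate 2 the transgenic change of Bub1 was 0.31 (adjusted p = 0.0893), which moved the value by over 1.5 times, and without transgenic replicate 4 it was 0.40 (adjusted p = 0.0568). In knockout-labelled mice the call was also lost without knockout-labelled replicate 2 (adjusted p = 0.0712), 3 (0.0733) or 4 (0.085) or control replicate 1 (0.0538) or 6 (0.0536), at log2 changes of 0.39 to 0.465. Aurka, the Aurora kinase of spindle poles, changed by 0.65 in transgenic and 0.70 in knockout-labelled libraries, Ttk (MPS1, which starts the checkpoint signal) by 0.52 in transgenic and 0.52 in knockout-labelled libraries, and Bub1b (BUBR1, a subunit of the checkpoint complex that binds CDC20) by 0.65 in transgenic and 0.64 in knockout-labelled libraries.

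The chromosomal passenger complex, which corrects faulty attachments of chromosomes to the spindle, was measured through 3 subunits. Aurkb (Aurora B, its kinase) averaged 72.55 ± 10.2 CPM in transgenic, 68.6 ± 12 CPM in knockout-labelled and 39.6 ± 6.505 CPM in control libraries and changed by 0.86 in transgenic and 0.77 in knockout-labelled libraries. Birc5 (survivin) changed by 0.76 in transgenic and 0.67 in knockout-labelled libraries and Cdca8 (borealin) by 0.68 in transgenic and 0.65 in knockout-labelled libraries. Aurkb and Cdca8 separated every knockout-labelled library from the controls, and Birc5 did not.

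Kinetochore genes changed least as a group, with medians of 0.60 in transgenic and 0.55 in knockout-labelled libraries. Spc25 (chr2:69193895-69206194), a subunit of the NDC80 complex that grips microtubules, was at 38.8, 56.7, 40.1, 49.6 and 45.4 CPM in transgenic libraries 1 to 5 and 36.6, 49.4, 49.2, 44 and 32.3 CPM in knockout-labelled libraries 1 to 5, against a lowest of 23.6, a median of 26.6 and a highest of 34.3 CPM in the 6 controls. All 5 transgenic and 4 of 5 knockout-labelled libraries were above the highest control, a change of 0.73 ± 0.13 in transgenic (adjusted p = 0.000433) and 0.58 ± 0.13 in knockout-labelled libraries (adjusted p = 0.00473). Its partners Ndc80 and Nuf2 changed by 0.61 in transgenic and 0.51 in knockout-labelled libraries, and by 0.60 in transgenic and 0.58 in knockout-labelled libraries. Cenpa, the histone H3 variant that marks centromeres, changed by 0.54 in transgenic and 0.50 in knockout-labelled libraries, Cenpe (a kinetochore motor) by 0.55 in transgenic and 0.51 in knockout-labelled libraries, and Cenpf (a large kinetochore and nuclear matrix protein) by 0.61 in transgenic and 0.59 in knockout-labelled libraries. Without control replicate 2 the knockout-labelled calls for Cenpa (log2 0.39, adjusted p = 0.0542) and Cenpe (0.41, adjusted p = 0.0577) were lost, and without knockout-labelled replicate 4 that for Cenpe (0.45, adjusted p = 0.053). In transgenic libraries, Cenpa, Cenpe, Cenpf and Nuf2 were among the 7 genes that overlapped with controls.

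The 7 spindle genes had medians of 0.68 in transgenic and 0.64 in knockout-labelled libraries. Kif11 (Eg5), the motor that pushes spindle poles apart, averaged 283 ± 36.3 CPM in transgenic, 285 ± 52.6 CPM in knockout-labelled and 189 ± 28.3 CPM in control libraries and changed by 0.57 in transgenic and 0.56 in knockout-labelled libraries. Kif15, which can stand in for Kif11, changed by 0.62 in transgenic and 0.55 in knockout-labelled libraries. Kif2c (MCAK), which takes microtubule ends apart, changed by 0.73 in transgenic and 0.71 in knockout-labelled libraries, and Kif4, a motor on chromosome arms, by 0.70 in transgenic and 0.64 in knockout-labelled libraries. Tpx2, the activator of Aurora A on spindle microtubules, changed by 0.68 in transgenic and 0.67 in knockout-labelled libraries. Microtubule-binding Nusap1 changed by 0.68 in transgenic and 0.64 in knockout-labelled libraries, and Hmmr, a spindle assembly factor first known as a hyaluronan receptor, by 0.58 in transgenic and 0.52 in knockout-labelled libraries. For all 7, every transgenic library was above every control, and for none of them was every knockout-labelled library.

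Cytokinesis genes held the smallest change in knockout-labelled mice. Kif23 (MKLP1, chr9:61915905-61946774), a motor of the central spindle, was at 126, 133, 108, 141 and 139.5 CPM in transgenic libraries 1 to 5 and 118, 129.7, 138, 123 and 93.7 CPM in knockout-labelled libraries 1 to 5, against a lowest of 75.5, a median of 89.2 and a highest of 108 CPM in the 6 controls. In each group 4 of 5 libraries were above the highest control (108.3 CPM), with transgenic replicate 3 just under it at 108.1 CPM. It changed by 0.49 ± 0.11 in transgenic (adjusted p = 0.00221) and by 0.39 ± 0.11 in knockout-labelled libraries (adjusted p = 0.0172). The knockout-labelled call for Kif23 was lost without control replicate 2 (log2 0.30, adjusted p = 0.0683) and without knockout-labelled replicate 2 (0.33, adjusted p = 0.0509) or 3 (0.31, adjusted p = 0.0577). Kif20a (MKLP2), which brings the passenger complex to the midzone, changed by 0.72 in transgenic and 0.67 in knockout-labelled libraries, Prc1, which bundles midzone microtubules, by 0.58 in transgenic and 0.53 in knockout-labelled libraries, and Anln, a scaffold of the contractile ring, by 0.74 in transgenic and 0.66 in knockout-labelled libraries.

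Mki67 and Top2a encode proteins of the chromosomes themselves. Mki67 (chr7:135689784-135716361), which encodes the Ki-67 coat of mitotic chromosomes and is a common marker of cycling cells, was at 1484, 1675, 1332, 1840 and 1803 CPM in transgenic libraries 1 to 5 and 1445, 1802, 1851, 1899 and 1257 CPM in knockout-labelled libraries 1 to 5, against a lowest of 823, a median of 1040 and a highest of 1331 CPM in the 6 controls. All transgenic and 4 of 5 knockout-labelled libraries were above the highest control, and the change was 0.63 ± 0.13 in transgenic (adjusted p = 0.00145) and 0.63 ± 0.13 in knockout-labelled libraries (adjusted p = 0.00339). Top2a, the topoisomerase that untangles sister chromatids, changed by 0.65 in transgenic and 0.60 in knockout-labelled libraries. Per transcript length, Top2a led the 36 genes in every group, at 448 ± 63.5 TPM in transgenic, 455 ± 85 TPM in knockout-labelled and 306 ± 48.1 TPM in control libraries, followed by Ube2c at 303 ± 37.4 TPM in transgenic, 305 ± 48.4 TPM in knockout-labelled and 176.5 ± 31.7 TPM in control libraries (SD, n = 5, 5 and 6). In all 3 groups Cdc25c had the lowest TPM.

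**Figure D4:**
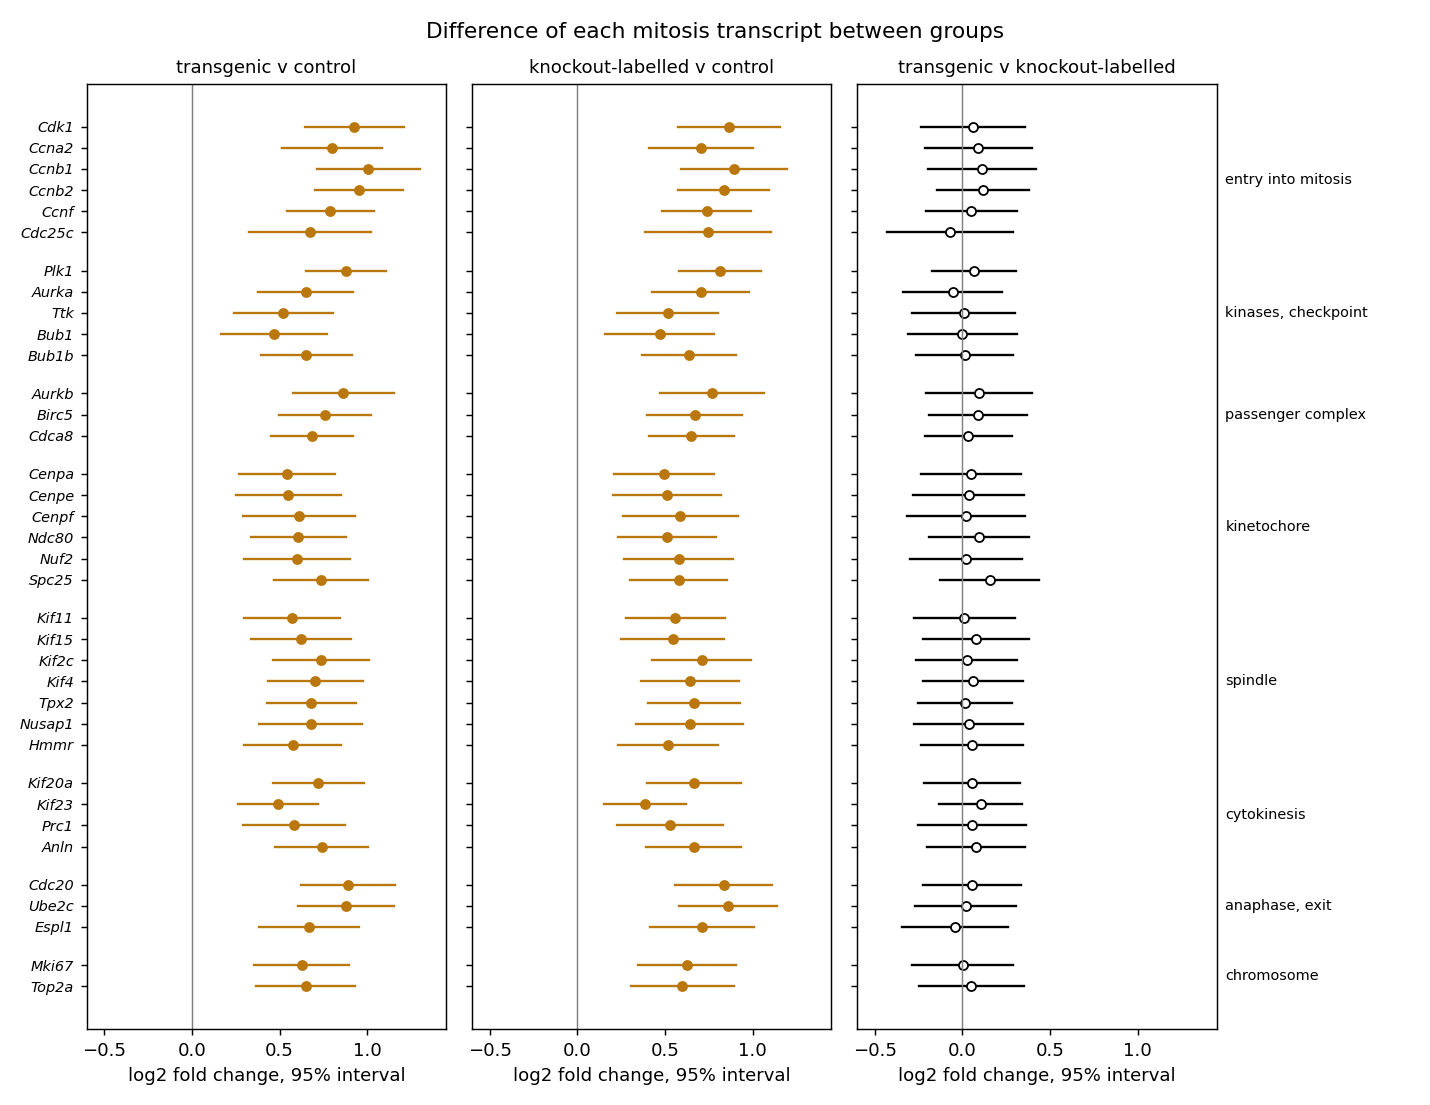
Log2 fold change (points) with its 95% interval (lines) of each mitosis gene, by role, for transgenic v control (left), knockout-labelled v control (middle) and transgenic v knockout-labelled (right); filled ochre points passed an adjusted p of 0.05 and open black points did not. All 36 intervals lie above 0 in the left and middle panels, and all 36 include 0 in the right panel.

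Transgenic and knockout-labelled thymocytes were compared directly for every member. Across all genes tested, 1.07% were called higher and 0.0938% lower in transgenic libraries (1.17% either way), and 0 of the 36 mitosis genes were called either way. Their log2 differences lay between -0.07 (Cdc25c) and 0.16 (Spc25), with a median of 0.05, and 33 of the 36 were positive. The 36 genes moved together between libraries, so these signs are not independent of each other. With 1 library left out at a time, the median lay between -0.04 and 0.13. The smallest p belonged to Spc25 (log2 0.16, 95% interval -0.13 to 0.44, adjusted p = 0.857) and the next to Ccnb2 (log2 0.12, 95% interval -0.15 to 0.38, adjusted p = 0.906). Over all 36 genes the intervals reached no lower than -0.43 and no higher than 0.44, which leaves room for differences of that size. For none of the genes was every transgenic library above every knockout-labelled one, beside 2.33% of all genes tested.

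The role groups differed in the size of their change, a contrast computed after the medians by role had been seen and given as a description. The mean log2(CPM + 1) of the 6 entry genes minus that of the 6 kinetochore genes was -0.26 to -0.05 in transgenic, -0.22 to -0.13 in knockout-labelled and -0.46 to -0.35 in control libraries, so that entry genes stood closer to kinetochore genes in every transgenic and knockout-labelled library than in any control. For the anaphase and exit genes the same difference was 0.11 to 0.53 in transgenic, 0.26 to 0.39 in knockout-labelled and 0.02 to 0.20 in control libraries; transgenic libraries overlapped with controls. Within groups the 36 genes moved as a block. After removing group means, the correlation between members over the 16 libraries had a median of 0.92 over the 630 pairs (range 0.54 to 1.00 when rounded, highest 0.996), and the first principal component held 89.8% of the variance. Each member correlated at 0.79 (Cenpa) to 0.996 (Kif20a and Tpx2) with the mean of the other 35. These values share library, depth and scaling, and are given without a test. The SD of a member within groups was 0.19 (Plk1) to 0.27 (Cdc25c) on the log2 scale.

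**Figure D5:**
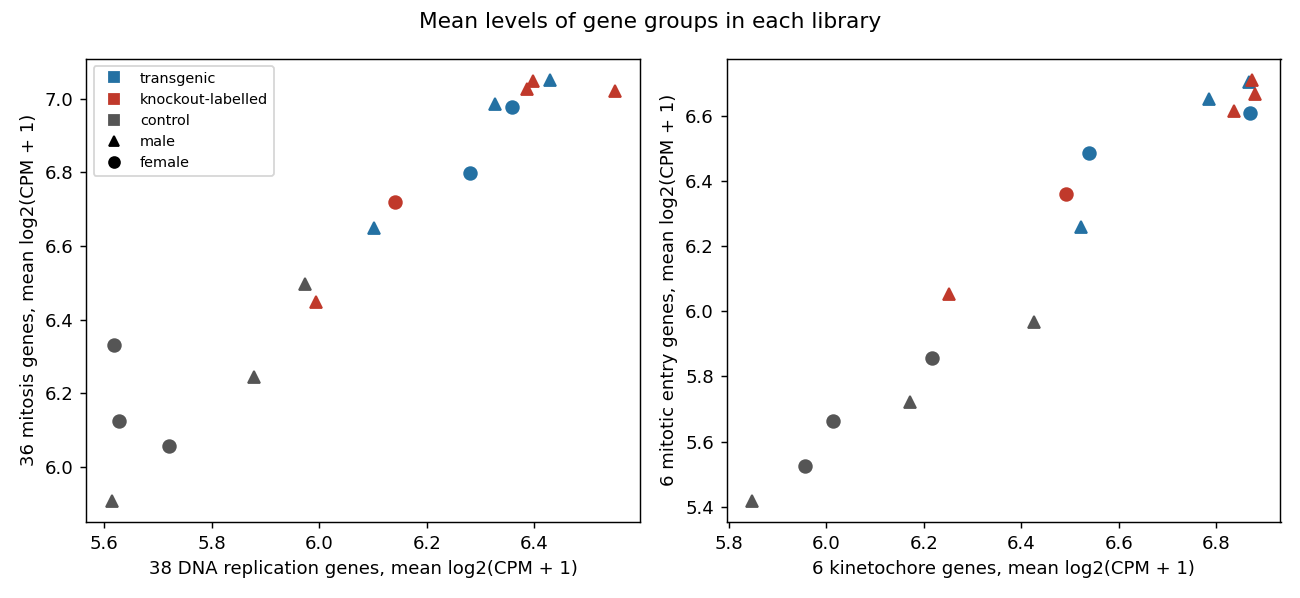
Mean log2(CPM + 1) of the 36 mitosis genes against that of 38 DNA replication genes (left) and of 6 mitotic entry genes against 6 kinetochore genes (right), 1 point per library, coloured by group, with triangles for males and circles for females. In the right panel transgenic and knockout-labelled libraries lie above the line of the controls; in the left panel knockout-labelled replicate 5 lies beside control replicate 3, the highest control.

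Sex made no called difference. Between males and females, 0 of 36 genes were called by edgeR, DESeq2 or limma-voom and 0 had an unadjusted p under 0.05 (over all genes 0.0603% were called higher in males and 0.0804% lower, 0.141% either way), with a median log2 difference of 0.08. Whether the transgenic change differed between males and females was tested on control and transgenic libraries alone, since knockout-labelled mice include 1 female. No member was called by edgeR (0.0278% of 14385 genes were) or by DESeq2, and 1, Cenpa, had an unadjusted p under 0.05. In males alone, with 3 transgenic, 4 knockout-labelled and 3 control libraries, 19 of the 36 genes were called in transgenic and 24 in knockout-labelled mice, with medians of 0.64 and 0.68. Over all 15123 genes of that fit, 9.79% were called higher in transgenic and 9.83% in knockout-labelled mice.

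Other genes of the cell cycle were counted from lists chosen beside the 36. Over all genes tested, 23.0% were called higher and 15.6% lower in transgenic libraries. In knockout-labelled libraries 16.4% were called higher, and 1493 of 14933 genes lower. Whether a list differed from these shares was not tested. Of 53 other mitosis genes, 48 were higher and 0 lower in transgenic, and 45 were higher and 0 lower in knockout-labelled ones (medians 0.61 and 0.55). Pttg1 (securin, the inhibitor of separase) changed by 0.86 in transgenic (adjusted p = 2.52e-05) and Cks1b (a small CDK-binding protein) by 0.78 in knockout-labelled libraries (adjusted p = 0.000575); the kinase gene Melk rose by 0.82 in transgenic and 0.69 in knockout-labelled libraries. Of 38 DNA replication genes, 36 were higher and 0 lower in each group, with medians of 0.62 in transgenic and 0.60 in knockout-labelled libraries. Chaf1b, a subunit of the chromatin assembly factor that follows replication forks, rose by 0.67 in transgenic and 0.61 in knockout-labelled libraries, Ccne1 (cyclin E1) by 0.76 in transgenic and Fen1 (the flap endonuclease) by 0.64 in knockout-labelled libraries. The medians of these S phase genes were thus close to those of the 36 mitosis genes, and the difference between the lists was not tested. In single libraries the deviation of the 36 genes from their group mean followed that of the replication genes (Pearson's r = 0.85 over 16 libraries that share scaling and depth, with no test).

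Other chromosome and cell-cycle complexes had smaller medians. Of 18 condensin and cohesin genes, 10 were higher in each group, with medians of 0.25 in transgenic and 0.24 in knockout-labelled libraries; Cdca5 (sororin, which guards cohesion) rose by 0.71 in transgenic and 0.71 in knockout-labelled libraries and the condensin subunit Ncaph by 0.52 in knockout-labelled libraries, whereas the cohesin loader Nipbl fell by 0.30 in transgenic and by 0.24 in knockout-labelled libraries, and the cohesin release factor Wapl fell by 0.18 in transgenic libraries. Of 17 subunits and regulators of the anaphase-promoting complex, 7 were higher in transgenic and 8 in knockout-labelled libraries, with medians of 0.09 and 0.14, and 0 were lower. The small subunits Anapc11 and Anapc15 had the smallest p, with changes of 0.42 in transgenic and 0.37 in knockout-labelled libraries, and of 0.51 in transgenic and 0.44 in knockout-labelled libraries. Of 26 regulators of mitotic entry and cell-cycle transcription, 15 were higher and 3 lower in transgenic, and 12 were higher and 2 lower in knockout-labelled ones (medians 0.23 and 0.17). E2f1 (an activator of S phase genes) and Rbl1 (the pocket protein p107) rose by 0.73 and 0.39 in transgenic libraries, and Mybl2 (the B-MYB subunit of MuvB complexes) and Cdc25b (a phosphatase of CDK1) by 0.59 and 0.66 in knockout-labelled libraries. Lats1 (a Hippo kinase) and Ppp2r5c (a phosphatase subunit) fell in both groups, by 0.17 and 0.13 in transgenic and by 0.13 and 0.17 in knockout-labelled libraries, and Lin52 (a MuvB subunit) fell by 0.29 in transgenic libraries.

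Inhibitors of cyclin-dependent kinases and genes of resting cells had calls in both directions. Of 16 tested, 3 were higher and 7 lower in transgenic, and 1 was higher and 4 lower in knockout-labelled ones (medians -0.08 and -0.04). Higher calls were rarer in this list than over all genes (23.0% in transgenic and 16.4% in knockout-labelled libraries). Lower calls were more frequent than over all genes (15.6% in transgenic libraries, and 1493 of 14933 genes in knockout-labelled ones). Neither difference was tested. Cdkn1b (p27) fell by 0.25 in transgenic (adjusted p = 0.00034) and by 0.20 in knockout-labelled libraries (adjusted p = 0.00311). Ccng2 (the atypical cyclin G2) fell by 0.29 in transgenic and Btg1 (an antiproliferative gene) by 0.33 in knockout-labelled libraries. Cdkn2c (p18) rose by 0.66 in transgenic and 0.59 in knockout-labelled libraries, and Cdkn2d (p19) and Klf2 (a factor of resting and emigrating T cells) rose by 0.21 and 0.89 in transgenic libraries. In none of these 6 cell-cycle lists was a gene called between transgenic and knockout-labelled libraries, beside 1.17% of all genes tested.

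Markers of other thymocyte stages and of other cells also differed between the groups, and their part in the change of the 36 mitosis genes was not tested. Their counts of calls stand beside the same shares over all genes. These were 23.0% higher and 15.6% lower in transgenic libraries, and 16.4% higher and 1493 of 14933 genes lower in knockout-labelled ones. Of 13 double-positive markers, 10 were lower in transgenic and 5 in knockout-labelled libraries, 0 were higher, and their median log2 changes were -0.295 and -0.23. Their summed level was 6519 to 7280 CPM in transgenic, 6809 to 8442 CPM in knockout-labelled and 6459 to 9622 CPM in control libraries. The low end of the controls was control replicate 6 alone, and the other controls lay at 8443 CPM or more. Cd4, the coreceptor for MHC class II, fell by 0.45 in transgenic and by 0.35 in knockout-labelled libraries. Of 13 tested markers of double-negative and immature thymocytes, 6 were higher in transgenic and 4 in knockout-labelled libraries and 0 were lower, with medians of 0.43 and 0.30 and sums of 4103 to 4693, 4118 to 4570 and 4191 to 4297 CPM in transgenic, knockout-labelled and control libraries, most of it from Tcf7, which double-positive cells express too. Ptcra (the pre-T cell receptor chain) averaged 3.2 ± 0.578 CPM in transgenic, 3.59 ± 1.08 CPM in knockout-labelled and 2.11 ± 0.675 CPM in control libraries, and Lyl1 (an early progenitor factor) 1.23 ± 0.274 CPM in transgenic, 1.02 ± 0.193 CPM in knockout-labelled and 0.573 ± 0.204 CPM in control libraries; Il2ra was at 9.25 to 15.1 CPM in transgenic, 7.53 to 12.6 CPM in knockout-labelled and 9.67 to 14.5 CPM in control libraries. Igll1 was at 0 in 2, 3 and 1 and Erg in 0, 0 and 4 of those libraries.

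Of 10 mature thymocyte markers, 8 were higher in transgenic and 1 (Il7r) in knockout-labelled libraries, with medians of 0.90 and 0.34. The 1 of 10 in knockout-labelled libraries was below the 16.4% of all genes called higher there. Il7r is also on the list of immature markers and was counted in both. The sums were 1377 to 1829 CPM in transgenic, 1014 to 1201 CPM in knockout-labelled and 907 to 1230 CPM in control libraries. B and plasma cell markers were higher for 9 of 13 in transgenic libraries (702 to 865 CPM), and for 0 of 13, with 2 lower, in knockout-labelled libraries (451 to 499 CPM), beside 457 to 519 CPM in controls, with medians of 0.97 and 0.03. Whether 2 lower calls of 13 exceed the 1493 of 14933 over all genes was not tested. Macrophage and dendritic cell markers were higher for 8 of 11 in transgenic and 0 of 11 in knockout-labelled libraries (medians 1.63 and 0.74), at sums of 18.9 to 25.1, 4.49 to 14.2 and 6.14 to 11.5 CPM in transgenic, knockout-labelled and control libraries. The knockout-labelled sums were 13.75, 14.18 and 13.07 CPM in replicates 1 to 3 and 4.49 and 5.51 CPM in replicates 4 and 5. Control replicate 1 was the highest control. Type I interferon response genes were higher for 5 of 11 in transgenic and 0 of 11 in knockout-labelled libraries (medians 1.52 and -1.54), at sums of 344.8 to 1454 CPM in transgenic, 168 to 251 CPM in knockout-labelled and 160.1 to 730.3 CPM in control libraries, with control replicate 2 the highest control. Control replicate 2 and transgenic replicates 3 and 5 had the highest sums of their groups. Without them, all 36 mitosis genes were called in transgenic mice (median 0.66) and 26 in knockout-labelled mice (median 0.52). Of the 15222 genes of that fit, 15.0% and 8.51% were called higher. The libraries left still differed in interferon sums, at 344.8 to 480.8 CPM in transgenic and 160.1 to 207 CPM in control libraries. Those left out included the lowest control for 32 and the lowest transgenic library for 31 of the 36 genes. The part of the interferon genes was not tested. The 10 genes no longer called in knockout-labelled mice were Ttk, Bub1, Cenpa, Cenpe, Cenpf, Ndc80, Kif15, Hmmr, Kif23 and Prc1. Immediate-early genes were lower for 5 of 10 in each group (medians -0.78 in transgenic and -0.71 in knockout-labelled libraries), and their sums were 502 to 618.5 CPM in transgenic, 462 to 677.5 CPM in knockout-labelled and 699.6 to 1051 CPM in control libraries. Erythroid markers had 0 of 5 tested genes called in either group (medians 0.08 in transgenic and -0.93 in knockout-labelled libraries), at sums of 10.9 to 67.2 CPM in transgenic, 5.39 to 62.8 CPM in knockout-labelled and 7.48 to 131 CPM in control libraries. The 131 CPM was control replicate 1 alone, and the other controls had 7.48 to 10.8 CPM. Thymic epithelium markers had 1 of 4 tested genes called higher in transgenic (Cdh1) and 0 in knockout-labelled libraries (medians 0.27 and 0.14), at sums of 4.98 to 7.81, 5.79 to 6.66 and 5.20 to 6.515 CPM in transgenic, knockout-labelled and control libraries.

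MHC class II genes were higher for 6 of 6 in both groups (medians 2.935 in transgenic and 2.53 in knockout-labelled libraries), and their sums differed between libraries of 1 group: 84.0, 82.9 and 97.7 CPM in knockout-labelled replicates 1 to 3 beside 12.2 and 16.1 CPM in replicates 4 and 5, with 56.2 to 98.2 CPM in transgenic libraries, and 28.9 CPM in control replicate 1 beside 9.69 to 14.0 CPM in the other controls. Without these 3 knockout-labelled libraries and control replicate 1, the 36 mitosis genes had a median change of 0.57 in knockout-labelled mice, all still positive, but 7 were called, with 2 knockout-labelled libraries left. Over all 15522 genes of that fit, 6.74% were called higher in knockout-labelled mice.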

How the data were processed

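RNA-seq of sorted thymocytes was deposited as 1 table per library with 2 values per gene. The authors' expected counts are estimated counts per gene before normalization, and their TPM values are scaled per transcript length and per library, per the file headers. The submitters' processing notes name Bowtie 1.0.0, SAMtools 0.1.18, edgeR 3.24.3 and the mouse build GRCm38; for the counting program, none is given in the sources used here. Of the positive counts, 58.7% were whole within 1e-06. Genes without a symbol (512 identifiers) held 0.171% of counts.

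After rounding, the expected counts went into edgeR 4.0.16 (R 4.3.3): filterByExpr, TMM scaling, a robust quasi-likelihood fit on all 16 libraries with group and sex (12 residual degrees of freedom) and Benjamini-Hochberg adjustment over 14933 genes, with calls at 0.05. The test was checked on simulated counts, in which genes varied independently of each other, unlike the 36 genes here. It recovered 86 of 100 genes changed 1.5-fold and 100 of 100 changed 2-fold. It also called 17 unchanged genes in that comparison, and 0 genes in a comparison without changes. Levels are CPM on TMM-scaled library sizes. TPM was used only to compare genes with each other. DESeq2 1.42.0 and limma 3.58.1 were alternatives. The 36 genes and the gene lists (other mitosis genes, condensin and cohesin, anaphase-promoting complex, entry and transcription regulators, CDK inhibitors, replication, markers of double-positive, immature and mature thymocytes, B cells, macrophages and dendritic cells, erythroid cells and thymic epithelium, interferon response, class II and immediate-early genes) were chosen with earlier results of these data known. From each list the text names the genes with the 2 smallest p-values or a call against the majority (for the stage and cell-type markers, a few of these; some items are not reported here), and a few markers chosen after their values were seen (Il2ra, Igll1, Erg, Cd8a, Rag1, Tcf7). Mice are separate animals. No library pair agreed within counting noise (chi-square per degree of freedom 4.55 or more). Equal replicate numbers do not pair the mice. Estimated counts limit precision beyond counting error.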

Additional observations from a re-analysis of the deposited data

Results flagged for a closer look

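Of 114 combinations of a gene or score with a group that were examined for a library far from the rest, 1 stood out. Ube2c, the ubiquitin-conjugating enzyme of the anaphase-promoting complex, had 138.1 CPM in transgenic replicate 3, below the 176.2 to 185.8 CPM of the remaining 4 transgenic mice, and the gap to the next library was 0.799 of the group's range, above Dixon's 95% critical value of 0.71 for 5 samples. Chance alone flags about 1 in 20 groups. Transgenic replicate 3 had the lowest transgenic level for 31 of the 36 mitosis genes, and its Ube2c level was still above every control.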

How the results depend on the processing

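Over 32 other settings, no called mitosis gene changed sign against controls. Of 1152 values per comparison, 29 in transgenic and 90 in knockout-labelled mice were no longer called; 18 and 7 of the 36 genes were called in every setting. The counts moved by over 1.5 times in 3 cases: against a fold of 1.2, 19 genes were called in knockout-labelled mice (2.12% of all genes were called higher); with males only, 19 in transgenic mice (9.79%); and without control replicate 1 and knockout-labelled replicates 1 to 3 together, 7 in knockout-labelled mice (6.74%). The last 2 settings test fewer samples. Leaving out each library in turn gave 35 to 36 calls in transgenic, 32 to 36 in knockout-labelled mice, 0 to 0 between transgenic and knockout-labelled mice, 0 to 0 between sexes and 0 to 0 for the sex difference of the transgenic change. Between transgenic and knockout-labelled mice the sign of a gene differed from the one reported in 190 values, none of them called.

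Same-numbered libraries shared only a number (correlation of deviations -0.203 to 0.387). With the number as a replicate block, 35 genes were called in transgenic and 31 in knockout-labelled mice, 0 between those groups and 0 between sexes; with a GC and length correction as well, 36, 33, 0 and 0. The small groups and the shared controls limit these results, and genotype cannot be separated from the identifier series of the mice.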
